A study of Anopheles gambiae with 5 samples.

Results

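The Toll and IMD immune pathways were examined at 6 genes in the midgut chromatin of *Anopheles gambiae* females, out of 13102 annotated genes on the assembled chromosomes. They were chosen by name: the Toll arm was represented by CACTUS (AGAP007938), MYD88 (AGAP005252) and REL1 (AGAP009515), and the IMD arm by IMD (AGAP004959), CASPAR (AGAP006473) and REL2 (AGAP006747). All 6 had a gene model in the assembly, and no filter on low values removed any of them. No measured value entered the rule, but the members were chosen with earlier results of these data known.

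Histone marks were mapped in midguts of adult females of the Kisumu strain, aged 6 to 8 days and given 10% sugar, with 1 chromatin immunoprecipitation library for H3K27ac, an acetylation found at active promoters and enhancers, 1 for H3K27me3, a methylation laid down by Polycomb proteins over silent genes, and 1 input library. The RNA libraries came from such females too, 1 made with 25 pooled midguts and 1 with 50 pooled salivary glands, and both were merged by the authors into one set of assembled transcripts. The labels name no infection, drug or transgene in any group. With 1 library per mark no value has a replicate error and no test between samples was possible. The main counts below are therefore set beside the same count over all annotated genes, as a description. Where no such share is given, a count describes the listed genes alone. The midgut was a whole organ of several cell types, and a weaker mark in every cell and a mark in fewer cells cannot be told apart. The peak lists give no read totals, and how precisely each peak was placed and scored at the depth sequenced was not measured. With no expression values the tissue label could not be checked on marker genes.

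Both pathways end in a transcription factor of the NF-kappaB family that is held in the cytoplasm until a microbe is sensed. In the Toll pathway the adaptor MYD88 passes the signal from the receptor, the inhibitor CACTUS is destroyed, and REL1 enters the nucleus. In the IMD pathway the adaptor IMD passes the signal from peptidoglycan receptors, CASPAR restrains it, and REL2, which carries its own inhibitory part, is cut to enter the nucleus and switch on antimicrobial peptide and complement-like genes. In this mosquito, silencing of CASPAR is known to lower *Plasmodium falciparum* infection through REL2.

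H3K27ac lay within 200 bp of the annotated start of 4 of the 6 genes: both inhibitors, CACTUS and CASPAR, the adaptor MYD88 and the transcription factor REL2. The same was true of 31.5% of all annotated genes. The other 2, REL1 and IMD, had no H3K27ac on the annotated gene, so the count over the gene with 200 bp on each side was again 4 of 6, against 37.0% of all genes. H3K27me3 was at the start of 0 of 6, against 21.3% of all genes, and on the gene or its flanks of 0 of 6, against 28.8%. Each pathway arm had 2 genes with H3K27ac at the start and 1 without.

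**Figure D1:**
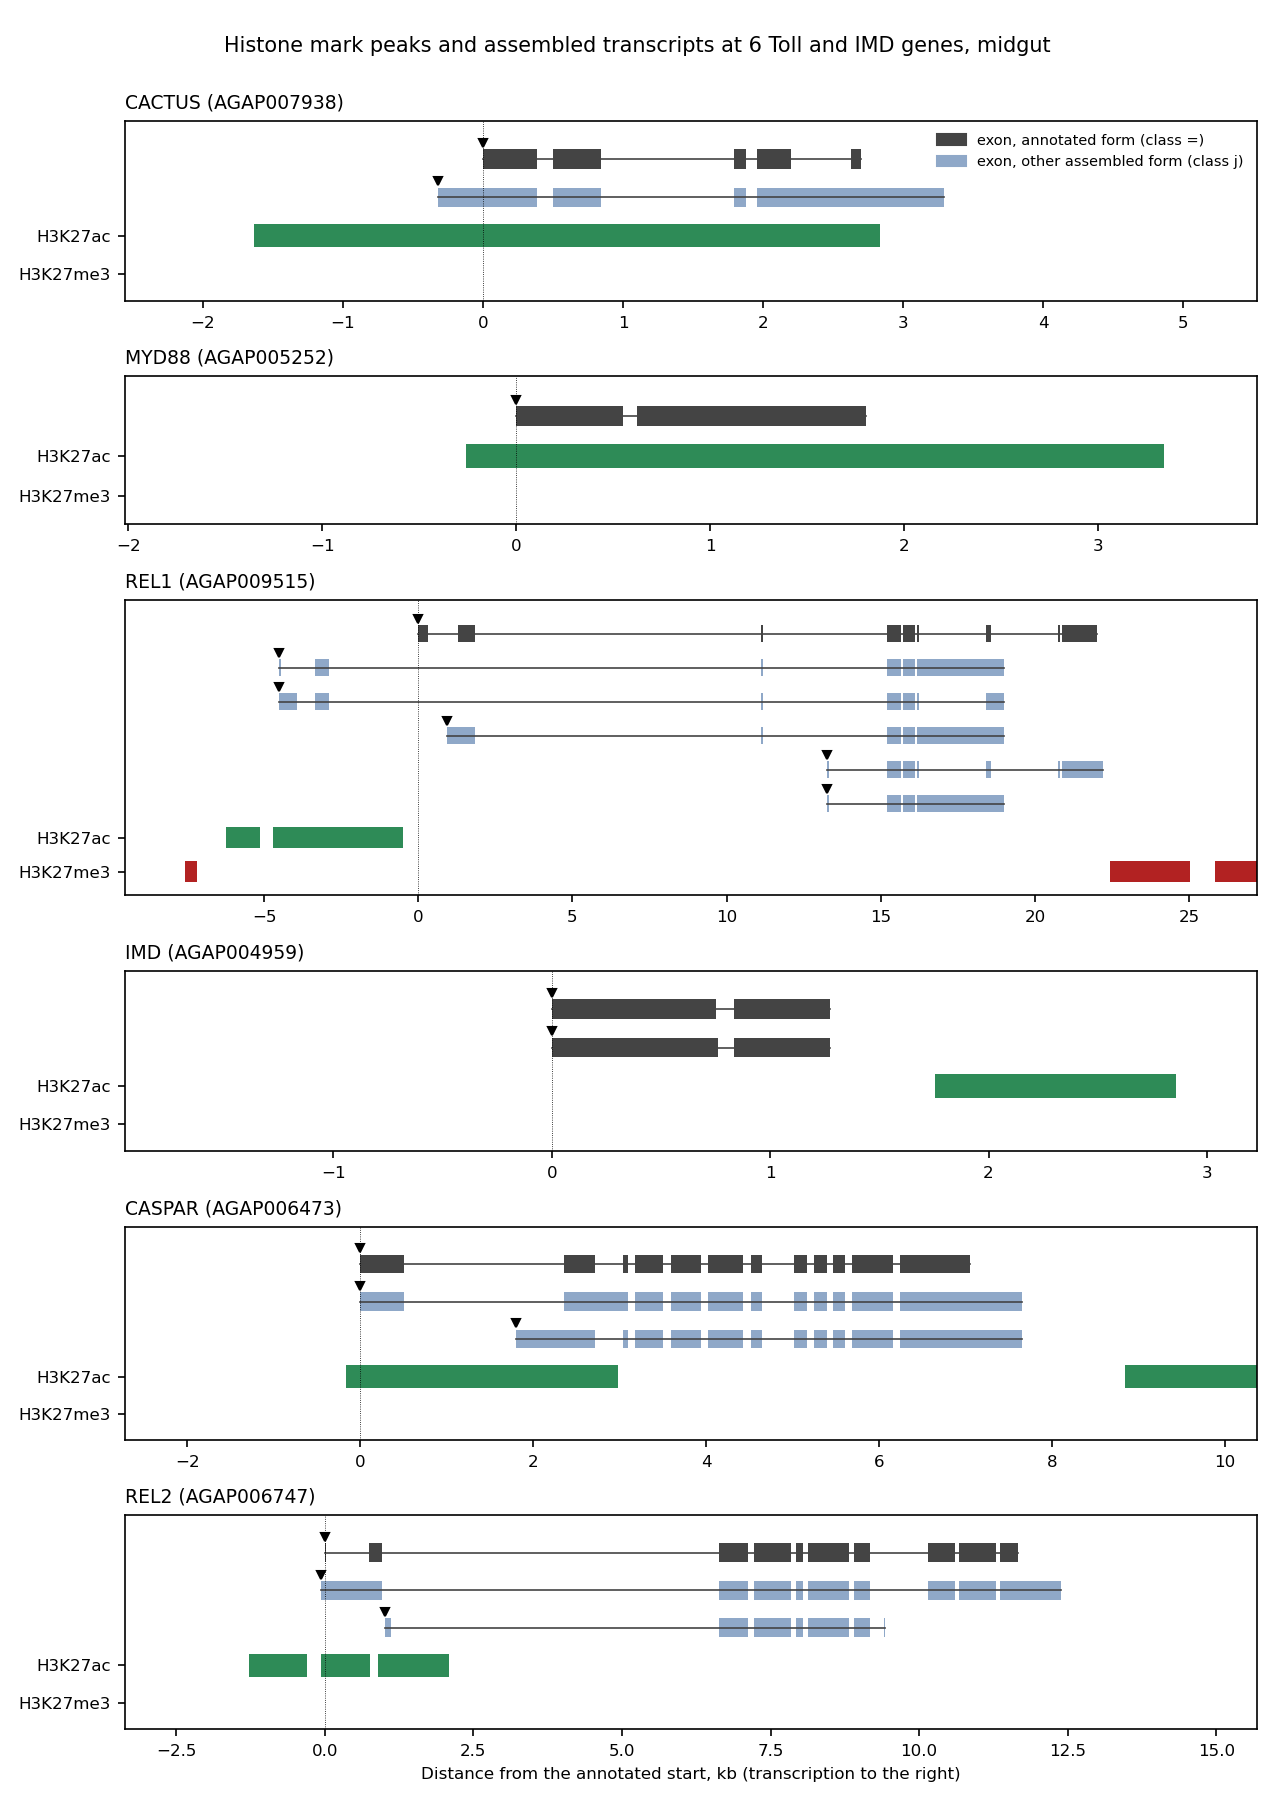
Maps of the 6 genes, each aligned at its annotated start (0 on the x axis, in kb, transcription to the right); dark exons belong to annotated forms, blue exons to other assembled forms, triangles mark starts, and green and red bars are H3K27ac and H3K27me3 peaks, which run on where they meet the frame. H3K27ac covered CACTUS and MYD88 from end to end, the first part of CASPAR and REL2, and, at REL1, an assembled start 4503 bp upstream of the annotated one.

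Transcript forms were read from the assembly, in which class "=" marks a chain of introns that matches the annotation and class "j" marks a form that shares at least one splice junction with it. The 6 genes had 17 assembled transcripts, 7 of class "=" and 10 of class "j", with 13 distinct starts. Of these starts 8 lay inside an H3K27ac peak, against 33.1% of the 17991 starts of all annotated genes, and 9 had H3K27ac within 200 bp. None of the 13 had H3K27me3 within 200 bp. For the counts within 200 bp no share over all starts is given here. The starts are not independent of each other. Both starts of CACTUS lay in 1 peak, as did both of CASPAR, and REL1 alone had 4 of the 13. A start is here the 5′ end of an assembled transcript, which was not measured at the cap of the RNA, and the merged assembly does not tell which of the pair of tissues a form came from.

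CACTUS, the IkappaB-type inhibitor that binds the Toll transcription factor, lay on 3R from 3214448 to 3217145 on the plus strand (AgamP4, positions counted from 1). The gene of 2698 bp and 5 exons was wholly inside 1 H3K27ac peak, from 3212815 to 3217280, which was 4466 bp long. The peak score, which MACS derives from the p-value of a peak against input so that a larger score means a smaller p-value, was 1342.83, and 642 of the 6639 H3K27ac peaks scored higher (median of all peaks 244.41). The peak reached 1633 bp upstream of the start and ended 135 bp past the gene. A longer assembled form began 320 bp further upstream, ran 595 bp past the annotated end and read through the last intron, and 87.3% of its span was under the peak. Both starts of CACTUS were inside the peak.

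The CACTUS peak also held the start of AGAP007937, which is transcribed in the opposite direction from a start 916 bp away. That neighbour had 80.9% of its body under H3K27ac, all of it in the shared peak, so the score cannot be assigned to either gene. The score and position of a peak describe the region between and over both starts.

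MYD88, the adaptor that joins the Toll receptor to its kinases, is a minus-strand gene of 2L, from 13194812 to 13196613. Its 2 exons and the intron of 73 bp between them were wholly inside an H3K27ac peak of 3595 bp, from 13193277 to 13196871. The score was 925.85, and 1074 peaks scored higher. Only 258 bp of the peak lay upstream of the start, while 1535 bp lay past the end of the gene. There the peak ran into the 3′ part of AGAP005251, a gene of the plus strand that ends 383 bp from MYD88, and covered 3.70% of it without reaching its start. MYD88 had 1 assembled transcript, of class "=".

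CACTUS and MYD88 were thus 2 of 6 genes with the whole body under H3K27ac, against 5.18% of all genes. Genes wholly covered had a median length of 1120 bp, against 2262.5 bp for all genes. CACTUS at 2698 bp was longer than both medians, and MYD88 at 1802 bp lay between them.

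REL1, the NF-kappaB factor of the Toll pathway and the counterpart of fly Dorsal, is a minus-strand gene of 3R, from 35054613 to 35076625. It is the longest of the 6 at 22013 bp, of which 18823 bp are introns, and none of its annotated bases was under H3K27ac or H3K27me3. An H3K27ac peak of 4210 bp, from 35077136 to 35081345, began 511 bp upstream of the annotated start. Its score was 738.62, and 1393 peaks scored higher. The peak therefore counted as absent within 500 bp of the annotated start and as present within 1000 bp.

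That peak held another start of REL1. The gene had 6 assembled transcripts, a number reached or passed by 219 of all genes (1.67%), from 4 starts. A pair of class "j" forms began at 35081128, which is 4503 bp upstream of the annotated start, 217 bp inside the upstream edge of the peak and 3992 bp from its downstream edge. The whole window of 200 bp on each side of this start was under H3K27ac. The first 2 exons of both forms were wholly inside the peak and overlapped no annotated exon. Both forms then skipped annotated exons 1 and 2 and joined exon 3, with exons 3 to 5 identical to the annotated ones, and 17.0% of their span was under H3K27ac. Whether these forms were present in the midgut, where the mark was mapped, was not tested. REL1 was the single member with H3K27ac at a further start and none at the annotated one, and it was also the single member without H3K27ac at the annotated start that had a further start to examine. Among all genes of that kind, 283 of 1051 (26.9%) had H3K27ac at a further start.

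The remaining starts of REL1 were outside the peak. The annotated start had an assembled form of class "=" with all 9 exons. Another form began 944 bp downstream of it, 1455 bp from the peak, within annotated intron 1. A pair of forms began 13259 bp downstream, 13770 bp from the peak, with a first exon of 63 bp in annotated intron 3. Of the 4 starts, H3K27ac was thus present at the most upstream one and at none of the other 3. Of the class "j" forms, 4 ended at 35057630, inside annotated intron 7, and so lacked annotated exons 8 and 9.

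H3K27me3 lay on both sides of REL1 but not on it. An island, as the broad peaks of the H3K27me3 list are called, ran from 35051601 to 35054199 and began 414 bp past the annotated end of the gene, or 226 bp past the furthest assembled end. It touched AGAP009514, the convergent gene 389 bp downstream, which had 81.1% of its body under the mark. On the other side, an island of 399 bp lay 2673 bp beyond the upstream start, and AGAP009516, 11111 bp from the annotated start, had 75.4% of its body under the mark. The stretch free of H3K27me3 between the islands was 29601 bp long and held all assembled forms of REL1, which span 26704 bp, together with its H3K27ac peak. A second, smaller H3K27ac peak, with a score of 81.16, lay in the same stretch 430 bp from the first and touched no gene.

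REL1 was 1 of the 6 genes with H3K27me3 at the start of both nearest annotated neighbours and none on itself, against 2.37% of the 9317 genes with no H3K27me3 and a neighbour on each side. With H3K27me3 looked for within 5000 bp of the gene, REL1 and CACTUS carried it, 2 of 6 against 49.6% of all genes. At CACTUS the island was longer, 12599 bp, with a value of 1731 in the last column of the list, which may be a read count or an island score and grows with length, that placed it above 95.3% of all islands, and it ended 3449 bp upstream of the start. The upstream edge of the CACTUS acetylation peak lay between that island and the gene. The nearest island to the other 4 genes was over 12 kb away, at 12738 bp from IMD, 12813 bp from MYD88, 24010 bp from CASPAR and 28314 bp from REL2.

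IMD, the death-domain adaptor after which its pathway is named, lay on 2L from 7194587 to 7195863 on the plus strand and was the shortest of the 6 at 1277 bp. Neither mark touched the gene or the 200 bp on each side. Its 2 assembled transcripts, both of class "=", shared their start and end and differed only at the end of the first exon, at 7195339 or 7195348, so that their exons summed to 1197 and 1206 bp. The nearest H3K27ac peak, from 7196341 to 7197443, began 478 bp past the end of IMD and 1754 bp from its start. It lay over the start of AGAP004960, the convergent gene whose end is 17 bp from that of IMD, and covered 66.5% of that neighbour. Its score of 67.65 was low, with 5951 peaks above it. On the upstream side AGAP004958 starts 376 bp from the IMD start in the opposite direction, and it carried no mark either. IMD was the single member with no H3K27ac at any assembled start.

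CASPAR, the counterpart of the human Fas-associated factor and a negative regulator of the IMD pathway, lay on 2L from 32629209 to 32636262 on the plus strand. Its H3K27ac peak ran from 32629046 to 32632187, with a score of 1443.32, the highest of the peaks on the 6 genes, and 573 of all peaks scored higher. The peak reached only 163 bp upstream of the start and 2978 bp downstream of it, and touched no other gene. Exon 1, intron 1 of 1850 bp and exon 2 were covered in full and intron 2 by 82.7%, whereas exons 3 to 12 were not covered at all. As a result 42.2% of the body was under the mark, with 66.3% of intron bases and 22.5% of exon bases.

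The further start of CASPAR was inside the same peak. A class "j" form began 1804 bp downstream of the annotated start, within intron 1, and continued into exon 2 without a splice. Another class "j" form kept the annotated start and read through intron 2. Both ended at 32636861, which is 599 bp past the annotated end.

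REL2, the NF-kappaB factor of the IMD pathway and the counterpart of fly Relish, is a minus-strand gene of 2L, from 37733113 to 37744769. It is known to be made in a full-length form and in a short form that lacks the inhibitory ankyrin repeats. The peak list placed 3 H3K27ac peaks in the start region, and 2 of them touched the gene. Among the 4 members with H3K27ac, REL2 alone had 2 or more peaks on the gene or its flanks of 200 bp. This count of 1 of 4 was close to the 21.8% of the 4852 genes with the mark.

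The peak at the annotated start of REL2 was short and scored low. It ran from 37744009 to 37744826, 818 bp with a score of 104.46, and only 4.32% of all H3K27ac peaks were shorter. It extended 57 bp upstream of the start and 760 bp downstream. The next peak inside the gene, from 37742678 to 37743865, was 1188 bp long with a score of 282.25, the higher of those 2. Another peak, of 980 bp with a score of 178.22, ended 294 bp upstream of the start and touched no gene. The gaps between the peaks were 143 and 236 bp. Both are under 600 bp, and with peaks closer than that joined the share of the REL2 body under H3K27ac was 17.9%, against 16.7%. The number, lengths and scores of these peaks thus depend on where the caller split the region.

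Each of the 3 assembled starts of REL2 was inside a peak or at the edge of one. The annotated start was inside the short peak, and a class "j" form that began 61 bp further upstream started 4 bp outside it, with 197 bp of its window under the mark. A second class "j" form began 1012 bp downstream of the annotated start, inside the peak that scored higher, with a first exon of 104 bp that overlapped no annotated exon. This form ended in intron 7 and so lacked annotated exons 8 to 10. The peaks covered 16.7% of the REL2 body, with 23.6% of intron bases and 2.46% of exon bases, and exons 3 to 10 were free of the mark.

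**Figure D2:**
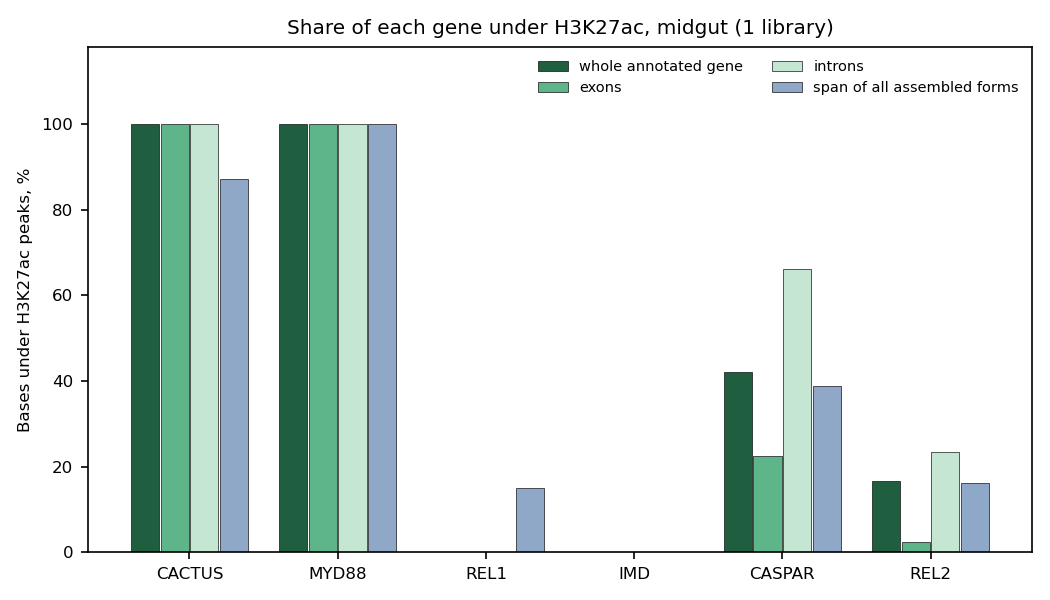
Share of bases under H3K27ac peaks (y axis, percent, from 0) in each gene, for the whole annotated gene, its exons, its introns and the span of all its assembled forms, from 1 library with no error bars. CACTUS and MYD88 were covered over the whole annotated gene, CASPAR at 42.2% and REL2 at 16.7%, and REL1 rose from 0 to 15.0% when all assembled forms were taken.

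The share of the body under H3K27ac separated the 4 members with the mark into 3 levels, while REL1 and IMD were at 0. CACTUS and MYD88 were covered in full, CASPAR at 42.2% was close to the median of 40.6% over genes with the mark, and REL2 at 16.7% was above 23.2% of those genes. Among these 4 the longer genes had the lower shares, since CACTUS and MYD88 were shorter than CASPAR and CASPAR was shorter than REL2. CACTUS at 2698 bp and MYD88 at 1802 bp had the same share and were not ordered. The members at 0 were IMD, the shortest at 1277 bp, and REL1, the longest at 22013 bp. With IMD included, the share did not follow length.

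**Figure D3:**
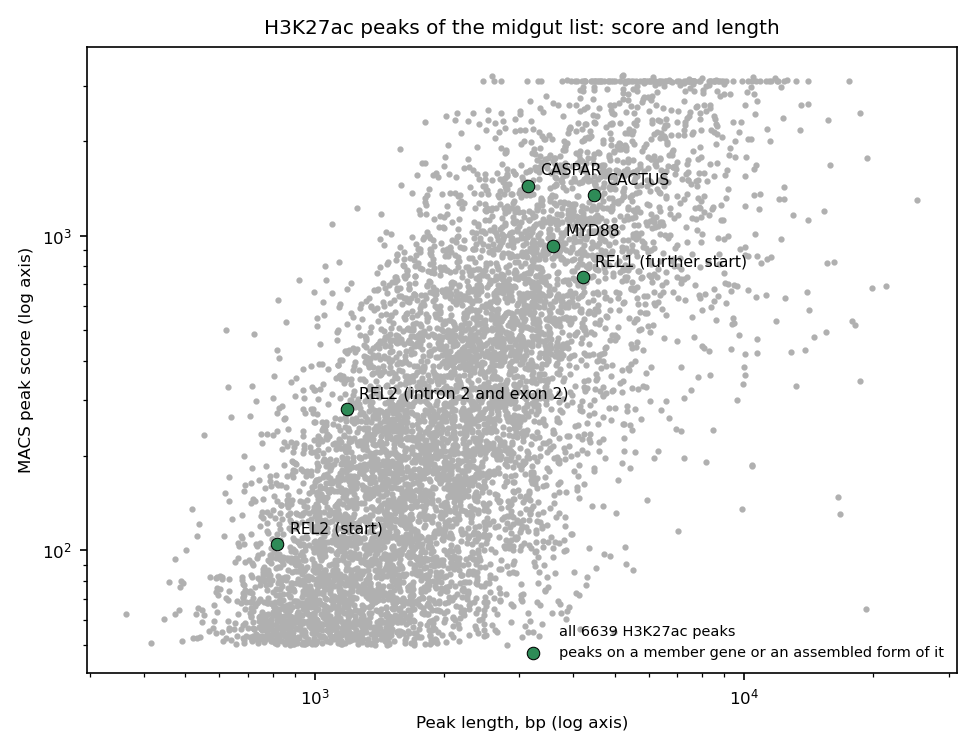
Score (y axis, log scale) against length in bp (x axis, log scale) of all 6639 H3K27ac peaks in grey, with the 6 peaks on a member or one of its assembled forms in green. The peaks of CASPAR, CACTUS, MYD88 and REL1 lay above the median score of 244.41 and the median length of 2048 bp, and both peaks of REL2 were shorter than that median.

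Peak scores ranged over more than 1 order of magnitude among the members. The peak of CASPAR scored 1443.32 and the one that CACTUS shares with AGAP007937 scored 1342.83, those of MYD88 and of the upstream REL1 start scored 925.85 and 738.62, and the peaks on REL2 scored 282.25 and 104.46. Per kb of peak, CASPAR was highest at 459, followed by the shared peak of CACTUS and AGAP007937 at 301 and MYD88 at 258. The higher peak of REL2 came next at 238, then REL1 at 175 and the peak at the annotated start of REL2 at 128. No error can be put on these scores, so neighbours in this order cannot be said to differ.

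**Figure D4:**
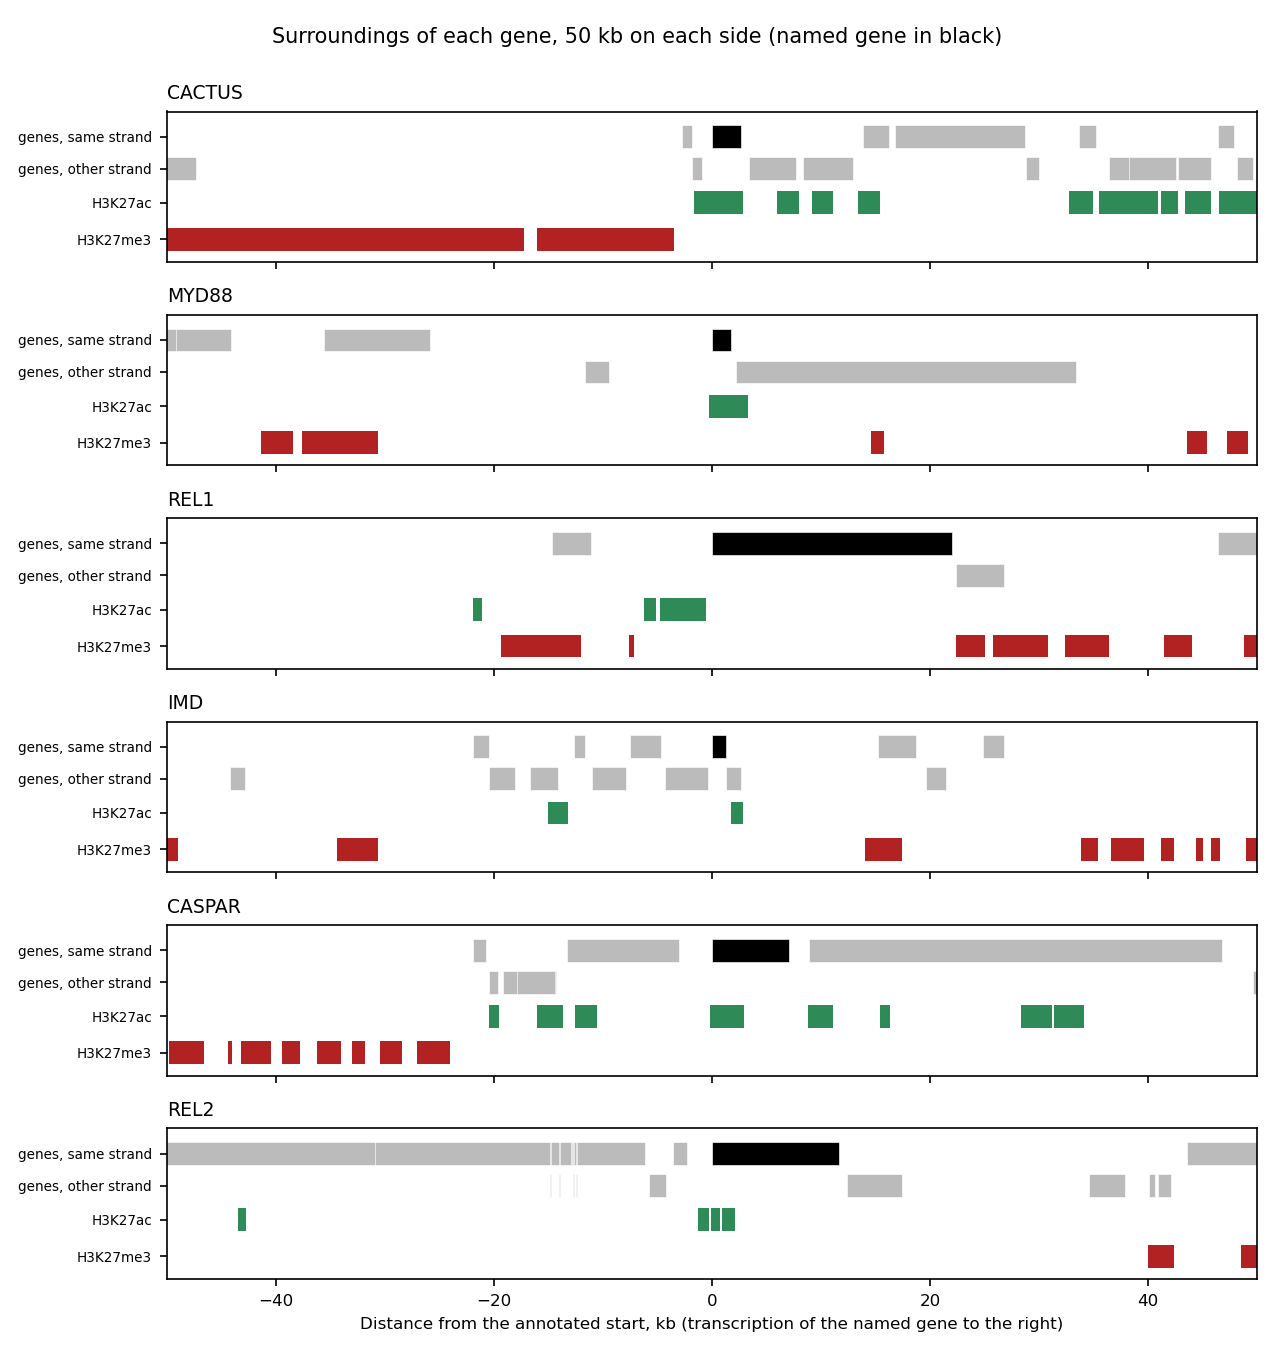
Annotated genes on each strand (grey, the named gene in black), H3K27ac peaks (green) and H3K27me3 islands (red) from 50 kb upstream to 50 kb downstream of each annotated start (x axis, kb, transcription of the named gene to the right). CACTUS sat at the edge between a stretch of H3K27me3 and a stretch with 9 H3K27ac peaks, and MYD88 carried the single H3K27ac peak in its window.

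The surroundings of the genes also differed. Within 50 kb on each side of the start, H3K27ac covered 25.3% of the bases around CACTUS, more than at 89.1% of the annotated starts on 3R. H3K27me3 covered 45.4% of the same window, all of it upstream, which was more than at 88.6% of starts. CASPAR had 8 H3K27ac peaks and 17.4% of its window under the mark, against a median of 11.1% for starts on 2L. In contrast MYD88, IMD and REL2 were in windows with little H3K27ac, 3.59%, 2.91% and 3.73%. For MYD88 its own peak was the only one, while for REL2 the 3 peaks of its start region were 3 of the 4 in the window. Around REL1, H3K27ac covered 6.19% and H3K27me3 23.2%, and REL2 had the least H3K27me3, 3.83%.

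Of the 12 genes that flank the members, 4 had H3K27ac at the start and 2 had H3K27me3 there, shares close to the 31.5% and 21.3% of all genes. Both flanking genes of CACTUS were acetylated at their starts, as was 1 flanking gene each of IMD and CASPAR. Neither flanking gene of REL2 carried a mark.

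Effector genes taken here to be targets of these pathways were counted, from a list drawn from the study's candidate table. Whether each is a target was not tested. Of the 15 genes, antimicrobial peptides and complement-like factors, 3 had H3K27ac at the start (CEC1, CEC3 and DEF2) and 6 had H3K27me3 there, with 1, CEC3, in both counts. The shares over all genes were 31.5% and 21.3%. CEC1 and CEC3 lay under the same H3K27ac peak, so these 3 genes rest on 2 peaks. H3K27me3 was on the gene or its flanks in 7 of the 15, against 28.8% of all genes, and 6 had neither mark. The share of all genes with neither mark is not given here. On how many distinct islands the H3K27me3 counts rest was not determined. The 6 pathway genes and these 15 were not tested against each other.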

How the data were processed

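Chromatin of *Anopheles gambiae* midguts was immunoprecipitated with 1 antibody per mark and sequenced with an input library. The submitters' processing notes name Bowtie 1.0.0, MACS 1.4, SICER, TopHat2 2.0.10, Cufflinks 2.1.1 and Cuffdiff. The authors deposited 1 list of H3K27ac peaks with a MACS score and 1 list of H3K27me3 islands with a score column of whole numbers, which may be a read count or an island score, since its definition is not given in the sources used here. The scores of the callers are on different scales and were ranked only within their own list. The authors also deposited a merged assembly of the RNA from both tissues, with positions and class codes. The reads, the input library and expression values were not used here.

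A gene was taken as its class "=" transcripts, or its other assembled transcripts where it had none, and an overlap of 1 bp counted. Distances are differences of positions. Percentages of body were computed from the union of peaks. No test was run, since there was 1 library per mark. Scripts ran in Python 3.11.15 with matplotlib 3.10.9, and the interval functions were tested on simulated data.

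The text names the 6 members, genes that share a peak with them, the nearest gene on each side, and for each member with a mark the 3 most alike genes in length, body share of each mark and highest score. The names IMD and MYD88 come from the list of members. The members and lists were chosen with earlier results of these data known. The RefSeq table matched 0 identifiers of the files. Promoter motifs were not analysed here.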

Additional observations from a re-analysis of the deposited data

How the results depend on the processing

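The number with H3K27ac on the gene and flanks fell from 4 to 2 when at least 50% of the gene body had to be covered, which only CACTUS and MYD88 met. The number with H3K27me3 on the gene and flanks rose from 0 to 1 with flanks of 1000 bp and to 2 with flanks of 5000 bp, first through REL1 and then through CACTUS. H3K27ac at the start ranged from 3, with only peaks at or above the median score or the median length, to 5, with a window of 1000 bp or with every assembled start, both times through REL1. With flanks of 1000 bp or more, H3K27ac counted for all 6 genes. IMD entered through the peak over the start of AGAP004960, and REL1 through the peak upstream of its annotated start. The shares of all genes at the settings of this paragraph are not given here. Its counts therefore cannot be set against the shares given for the main setting. H3K27me3 at the start was also 0 with windows of 500 and 1000 bp and with every assembled start. With every assembled transcript, which widens the gene, H3K27me3 on the gene and flanks stayed at 0 and so did each body share. At REL1 the nearest island lay 226 bp from the furthest assembled end, just outside the 200 bp flank. The remaining settings could not raise a count or share of 0 for this mark. They only narrow the window or drop islands, or join islands closer than 600 bp where every gap is longer.

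The share of REL1 under H3K27ac was 15.0% with every assembled form against 0 on the annotated gene, and that of REL2 was 10.2% with peaks at or above the median score and 0 with peaks at or above the median length, against 16.7%. With 1 library per mark no replicate could be left out, and what depth limits was not measured. No paired analysis was possible because each mark had 1 library.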

Other observations

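The genes most alike to each acetylated member were found by summing differences in percentile rank over 4 measures: gene length, the body share of each mark and the highest H3K27ac score. Closeness in these measures thus follows from the way the genes were chosen. For CACTUS the most alike genes were AGAP007889, AGAP002113 and AGAP011054, each wholly under H3K27ac, with scores of 1437.22, 1504.29 and 1764.61. For MYD88 they were AGAP004484, AGAP006434 and AGAP010623, also wholly covered, with scores of 1104.41, 841.51 and 842.06. For CASPAR they were AGAP002655, AGAP005672 and AGAP001148, with 41.6%, 41.6% and 49.4% of the body covered. For REL2 they were AGAP009030, AGAP010367 and AGAP000171, with 19.3%, 15.7% and 18.3% covered and scores of 282.24, 241.34 and 243.98. The smallest sums were 1.05 for CACTUS, 1.76 for MYD88, 1.67 for CASPAR and 1.53 for REL2, in percentile points.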
